A study of Mus musculus with 44 samples.

Results

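Expression of 10 genes linked to how exercise acts on the brain was followed in hippocampal translating mRNA from mice given early-life exercise (ELE). They are Ppargc1a, Esrra, Fndc5, Ldha, Ldhb, Slc16a1, Slc16a7, Hcar1, Vegfa and Pdp1, which is 10 of the 55335 genes in the deposited table. They were chosen by their known roles in exercise, with results of these libraries already known, and Pdp1 was added with its ELE differences in view, so its ELE differences are given as a description without a test. Male Emx1-NuTRAP mice carry a Cre-dependent tag on a ribosomal protein and on the nuclear envelope, switched on in cells with a history of Emx1 expression. All groups shared this genotype. Mice were housed in pairs from postnatal day 21, the ELE mice in cages with a wheel on which they could run freely until day 41 and the sedentary mice in standard cages. Ribosome-bound RNA came either from the whole bilateral hippocampus by simultaneous INTACT and TRAP (SIT), in which nuclei and ribosomes are taken from the same homogenate, or from a left or a right hippocampus isolated separately. There were 4 ELE and 4 sedentary SIT libraries, of which the study compared ELE 1, 3 and 4 with sedentary 1 and 2, and 3 ELE and 3 sedentary libraries from each hemisphere. Each library came from 1 mouse, and libraries are numbered within a group only as names.

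PGC-1alpha, the product of Ppargc1a, is a transcriptional coactivator that raises mitochondrial gene expression together with the nuclear receptor ERRalpha, encoded by Esrra, and in muscle it is induced by exercise. One of its targets there is Fndc5, the precursor of the secreted peptide irisin. Lactate released by working muscle can enter the brain through monocarboxylate transporters, is interconverted with pyruvate by lactate dehydrogenase, and can act on the receptor HCAR1 to raise Vegfa, a growth factor for blood vessels. Pdp1 encodes a phosphatase that switches on pyruvate dehydrogenase, the entry of pyruvate into the mitochondrial citric acid cycle.

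Between 45895097 and 65767802 counts were assigned to genes per library, and 9 of the 10 genes had at least 974 counts in every library, whereas Hcar1 had 0 to 57. Expression is given as CPM, counts relative to the library's TMM-scaled size, and levels are compared between genes only as RPKM, which is CPM divided by exon length in kilobases. The 3 SIT libraries that the study left out were SIT ELE 2, SIT sedentary 3 and SIT sedentary 4, and mitochondrial genes took 8.64% and 9.64% of the counts in that sedentary pair, against 0.0704% to 0.523% in the 17 libraries compared. The markers listed for excitatory neurons summed to between 7805 and 11376 CPM in those 17 libraries, with Camk2a and Slc17a7 the most abundant. Astrocyte markers, led by Gfap and Atp1b2, reached 2481 to 6383 CPM, all 10 of them being counted in every library. Microglia markers summed to 7.75 to 14.3 CPM, oligodendrocyte markers to 2482 to 4017 CPM, inhibitory neuron markers to 52.1 to 93.3 CPM and meningeal markers to 47.5 to 101.8 CPM. Choroid plexus markers, led by Ttr and Enpp2, varied most, from 64.2 to 1883 CPM, and were lower in SIT ELE (260 to 876 CPM) than in SIT sedentary libraries (896 to 1047 CPM). The sedentary SIT pair left out by the study also stood apart in markers of other cells, with 239 and 249 CPM for microglia, 894 and 926 CPM for inhibitory neurons, and 410 and 502 CPM for meninges. In bulk libraries, fewer cells of a type and less RNA per cell cannot be told apart.

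The 10 genes covered a wide range of levels. Averaged over 17 libraries, Ldhb, which encodes the heart-type lactate dehydrogenase subunit, stood at 173 ± 25.5 RPKM (SD) and Ldha, which encodes the muscle-type subunit, at 76.5 ± 7.88 RPKM. Fndc5 followed at 49.4 ± 5.71 RPKM, Esrra at 16.997 ± 1.44 RPKM and Pdp1 at 10.2 ± 1.88 RPKM. Slc16a1, which encodes the lactate transporter MCT1, stood at 6.23 ± 1.58 RPKM, Vegfa at 5.28 ± 1.05 RPKM and Ppargc1a at 5.21 ± 0.588 RPKM, all near the median of 5.15 RPKM over 14116 genes with at least 1 CPM. Slc16a7, the neuronal transporter MCT2, stood at 3.17 ± 0.430 RPKM. Hcar1 was close to the limit of counting at 0.129 ± 0.0952 RPKM, with 0 to 57 counts per library. Within libraries the order was the same in all 17 for every neighbouring pair except 2. Slc16a1 exceeded Vegfa in 15 of 17 libraries, by a mean of 0.956 RPKM (SD of the differences 1.08). Vegfa exceeded Ppargc1a in 9 of 17, by 0.069 RPKM (SD 1.26), so the order of this last pair was not settled.

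**Figure D1:**
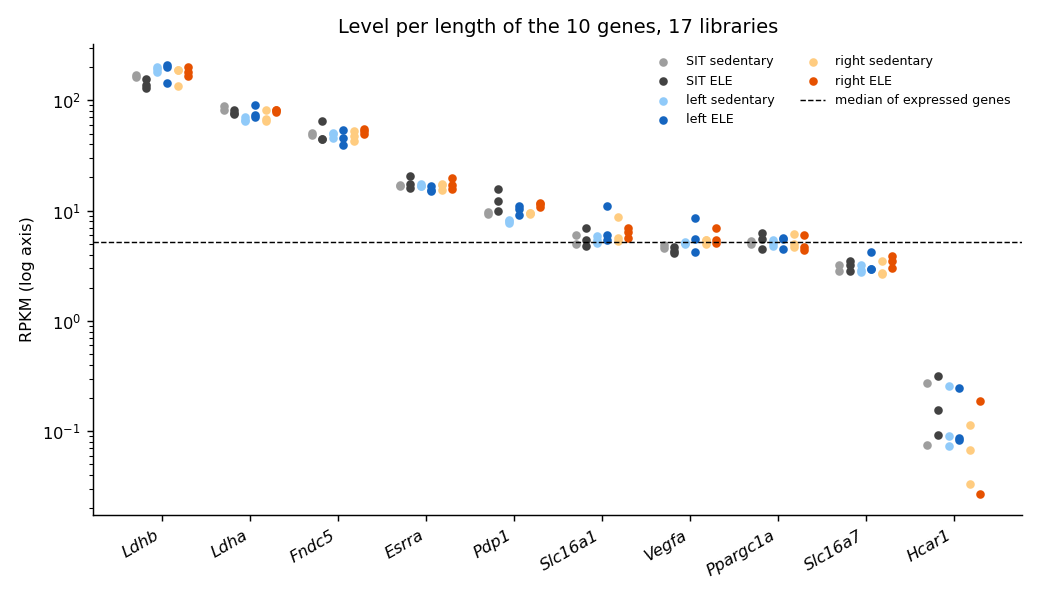
Level per length of the 10 genes in the 17 libraries compared, in RPKM on a log axis, 1 point a library, coloured by group, with the median of the expressed genes as a dashed line (the Hcar1 library with 0 counts is not drawn). Ldhb lies highest at a mean of 173 RPKM, Slc16a1, Vegfa and Ppargc1a lie near the median of 5.15 RPKM, and Hcar1 lies lowest at 0.129 RPKM.

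Promoters of the lactate genes Ldha, Slc16a1 and Ldhb are shown because their levels varied together or in opposite directions between libraries, as described further on. Each is the 250 bases before the RefSeq start in GRCm38.p6, written 5′ to 3′ on the gene's strand, at chr7:46845554-46845803 (plus strand), chr3:104638414-104638663 (plus strand) and chr6:142507958-142508207 (minus strand). For Ldha this RefSeq start lies within the gene as GENCODE annotates it, downstream of the first annotated base. Capitals mark ACGTG on either strand, 1 form of the core of the hypoxia response element, where matches that overlap on both strands form the palindrome CACGTG. The form GCGTG was neither searched nor marked.
Ldha: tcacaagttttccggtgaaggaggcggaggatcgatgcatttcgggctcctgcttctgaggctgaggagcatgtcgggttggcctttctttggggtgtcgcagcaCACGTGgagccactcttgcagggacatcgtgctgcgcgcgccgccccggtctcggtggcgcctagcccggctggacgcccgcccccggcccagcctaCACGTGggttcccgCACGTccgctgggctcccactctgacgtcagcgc
Slc16a1: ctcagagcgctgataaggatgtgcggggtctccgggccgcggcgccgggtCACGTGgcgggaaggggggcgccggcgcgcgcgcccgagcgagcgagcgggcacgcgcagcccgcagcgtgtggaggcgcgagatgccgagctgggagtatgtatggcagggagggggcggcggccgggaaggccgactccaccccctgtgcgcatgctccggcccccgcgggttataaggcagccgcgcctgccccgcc
Ldhb: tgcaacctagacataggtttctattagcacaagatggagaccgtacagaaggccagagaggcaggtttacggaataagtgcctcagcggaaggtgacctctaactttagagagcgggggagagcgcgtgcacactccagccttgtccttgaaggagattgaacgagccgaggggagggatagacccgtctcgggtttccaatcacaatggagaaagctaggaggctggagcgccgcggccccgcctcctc
The letters ACGTG were in 5 of the 10 promoters listed for 8 of the genes, against 16.6% of 32851 promoters, and CACGTG, which contains them, was in 2 of the 10 against 6.02%. Ldha held 2 copies of CACGTG, beginning 145 and 48 bases before its start, and Slc16a1 held 1, beginning 200 bases before. A second promoter listed for Ldha, chr7:46846832-46847081, held none of the motifs searched. Neither ACGTG nor CACGTG was in these 250 bases of Ldhb. The unmarked form GCGTG does occur in the sequences printed for Ldhb and Slc16a1, so Ldhb is not shown to lack the core. The cAMP response element TGACGTCA was in 1 of the 10, that of Ldha, against 1.55% of all promoters, and the letters AAGGTCA, which ERRalpha binds, were in none of the 10 against 4.08%. A match is a run of letters and not evidence of binding.

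To ask whether ELE altered these genes, ELE and sedentary libraries were compared within SIT, left and right, and over both hemispheres in 1 model with a term for hemisphere. A gene was called, after the study, at an unadjusted p under 0.05 and a change of at least 1.3-fold. Each p is from edgeR's quasi-likelihood test across all genes, is unadjusted unless named as adjusted, and measures the spread between mice. Mice of a pair shared a cage, and in ELE its wheel. The labels do not name cages, and no p takes account of them. Apart from Pdp1, whose ELE differences entered its choice and are not counted, none of the other 9 genes was called in SIT, where 3.73% of 18238 genes were called, in the left hippocampus (2.12%), in the right hippocampus (2.00%) or over both hemispheres (2.06%). The median log2 fold change of these 9 was 0.06 in SIT, 0.03 on the left, 0.11 on the right and 0.03 over both hemispheres, beside 0.0012, 0.0035, -0.0049 and 0.00022 over all genes tested. With p under 0.05 alone, Ldhb passed of these 9 in SIT (5.48% of genes), Ldha on the left (3.94%) and over both hemispheres (5.31%), and none on the right (2.78%). No adjusted p of a tested member was under 0.05 in an ELE comparison by edgeR. All 10 genes passed the filter on low counts in every comparison. Of the choroid plexus markers 4 of 10 fell in SIT ELE mice (3.73% of all genes called), 0 of 10 on the left (2.12%), 7 of 9 on the right (2.00%) and 2 of 10 over both hemispheres (2.06%). On the right, sedentary 3 had 1744 CPM of them, and sedentary 1, at 99.4 CPM, lay below 2 of the ELE libraries.

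**Figure D2:**
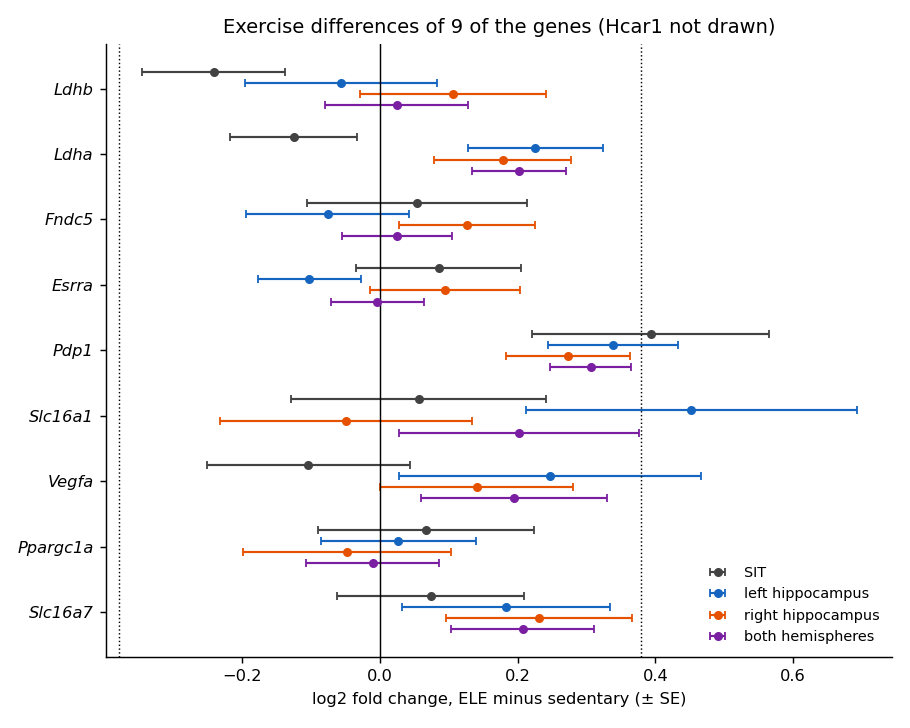
Log2 fold change, ELE minus sedentary, with its SE, for 9 of the genes in SIT (3 against 2 libraries), left and right hippocampus (3 against 3 each) and both hemispheres (6 against 6). Dotted lines mark 1.3-fold in either direction. The points of Pdp1 lie between 0.27 and 0.39, those of Ppargc1a between -0.05 and 0.07, and Ldha lies below 0 in SIT and above 0 in each hemisphere.

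Pdp1 (chr4:11958184-11966452, minus strand, GRCm38) was higher in ELE mice in each setting. In the left hippocampus the ELE libraries read 46.4, 49.99 and 41.3 CPM and the sedentary ones 35.1, 36.5 and 37.5 CPM. On the right they read 48.3, 51.5 and 53.5 CPM against 41.7, 42.5 and 42.8 CPM. In SIT they read 55.0, 70.3 and 44.6 CPM against 43.8 and 42.3 CPM. The groups did not overlap in any of the 3 settings, although the lowest SIT ELE library lay within 1 CPM of the highest sedentary one. How many of all genes separate in this way was not counted. As Pdp1 was chosen with these values in view, the separation is a description only. The log2 fold change was 0.34 ± 0.094 (SE) on the left, 0.27 ± 0.090 on the right, 0.31 ± 0.059 over both hemispheres and 0.39 ± 0.17 in SIT, that is 1.26-, 1.21-, 1.24- and 1.31-fold. With the 3 libraries that the study left out, which read 66.2 CPM in ELE and 55.2 and 59.9 CPM in sedentary mice, the SIT groups overlapped and the log2 fold change was 0.22. It was between 0.21 (without SIT ELE 3) and 0.53 (without SIT ELE 4) when each library in turn was left out of SIT. Without the libraries over 1000 CPM of choroid plexus markers, its log2 fold change over both hemispheres was 0.28.

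Ldha (chr7:46841475-46855627, plus strand), whose product favours making lactate from pyruvate, was slightly higher in ELE mice in the separately isolated libraries. Left ELE libraries read 246, 301 and 236 CPM and left sedentary ones 221, 236 and 214 CPM. The lowest ELE and the highest sedentary library were almost equal here, and left ELE 2 was highest. On the right, ELE libraries read 274, 273 and 259 CPM and sedentary ones 226, 272 and 216 CPM, with 1 sedentary library among the ELE values. Over both hemispheres Ldha was 1.15-fold higher in ELE mice (log2 fold change 0.20 ± 0.069, edgeR quasi-likelihood p of 0.0103, adjusted p = 0.919). Its 95% interval ran from 1.04- to 1.27-fold and so stayed under 1.3-fold. In SIT, ELE libraries read 249, 253 and 271 CPM against 292 and 269 CPM in sedentary ones, a log2 fold change of -0.12 ± 0.092 (p of 0.205, adjusted p = 0.967). With all 8 SIT libraries it was 0.12 (adjusted p = 0.801) and, within the NT6 mice (SIT ELE 1 and 2 against sedentary 1 and 2), 0.06 (adjusted p = 0.934), so the direction in SIT turned with the choice of libraries. None of the 9 genes tested was called for a difference between the SIT and the separate ELE effect, where 4.19% of genes were called, and Ldha came closest.

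Ldhb (chr6:142490249-142507957, minus strand), whose product favours the reverse reaction, was lower in SIT ELE mice. ELE libraries read 202, 218 and 244 CPM, all below the sedentary ones at 266 and 256 CPM. The log2 fold change was -0.24 ± 0.10, or 0.846-fold (edgeR p of 0.0429, adjusted p = 0.906). The libraries left out by the study read 171 CPM in ELE and 201 and 242 CPM in sedentary mice, and with all 8 the difference was -0.21 (adjusted p = 0.643). Both compared sedentary SIT libraries are from NT6 mice, while 2 of the 3 compared ELE libraries are from TG7.4 mice. Within the NT6 mice, which sets SIT ELE 1 and the left-out SIT ELE 2, the lowest in Ldhb, against both sedentary libraries, the difference was -0.50 (adjusted p = 0.648) and past the call rule. In the same 3 ELE libraries the choroid plexus sum was lower, the inhibitory neuron sum was lower (73.6 to 89.7 against 93.1 and 93.3 CPM, with Pvalb, Dlx1 and Dlx2 called) and the excitatory neuron sum was higher (8203 to 8941 against 7805 and 7848 CPM). The part of these in the difference was not tested. In the separately isolated libraries no difference in Ldhb passed the test, with 316, 225 and 326 CPM in left ELE against 302, 286 and 317 CPM in left sedentary, and 286, 313 and 262 CPM in right ELE against 295, 212 and 295 CPM in right sedentary libraries. Over both hemispheres its interval was 0.872- to 1.19-fold. The ratio of Ldhb to Ldha per length was 1.81 ± 0.0934 in SIT ELE and 1.97 ± 0.0642 in SIT sedentary libraries, 2.40 ± 0.716 against 2.85 ± 0.289 on the left, and 2.25 ± 0.148 against 2.43 ± 0.676 on the right (mean ± SD). ELE libraries had the lower mean ratio in each setting, and they overlapped with sedentary libraries on the left and on the right.

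**Figure D3:**
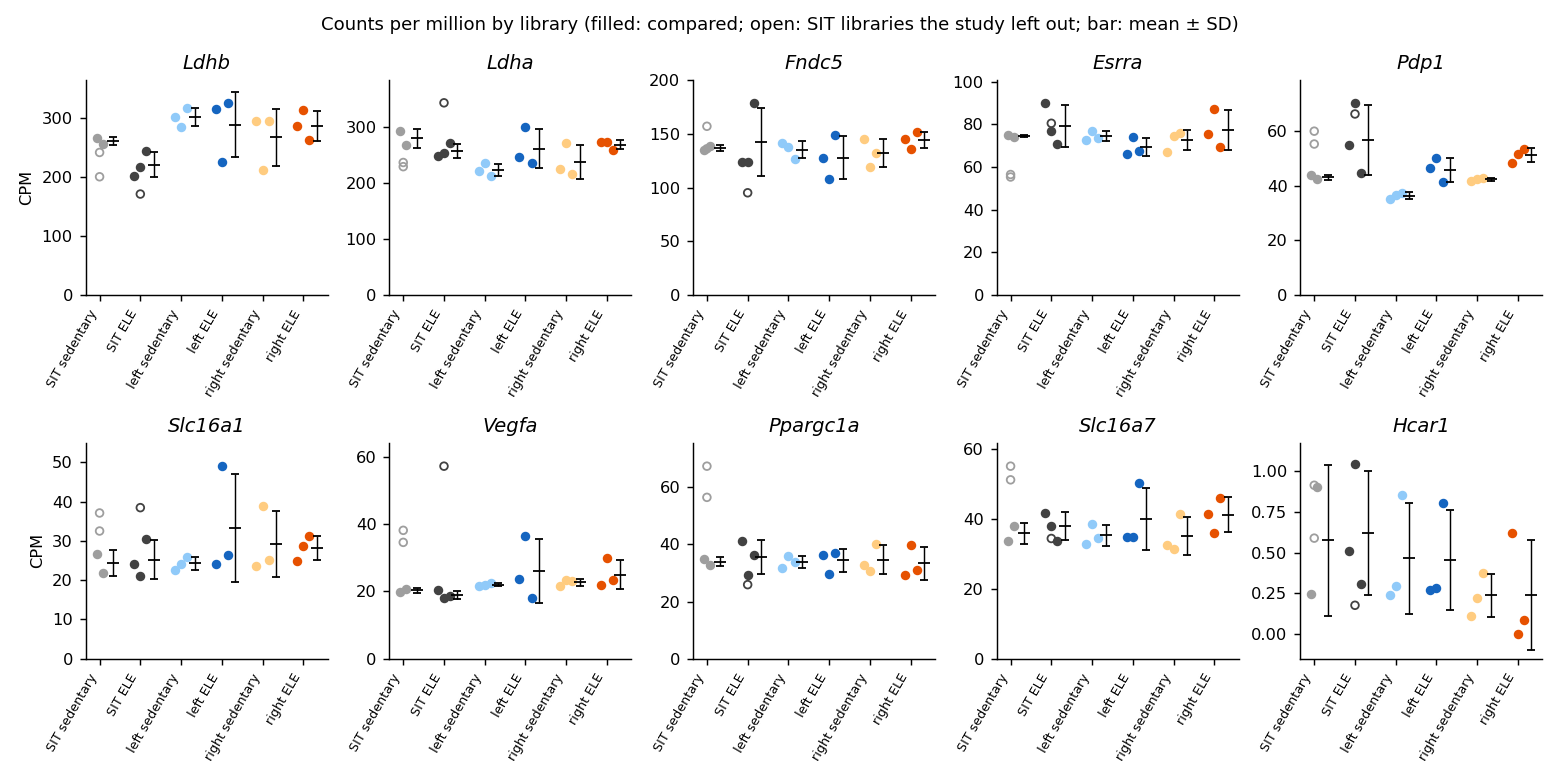
CPM of each of the 10 genes in all 20 libraries by group, with filled points for the 17 libraries compared, open points for the 3 SIT libraries the study left out, and the mean ± SD of the filled points. Among the filled points Pdp1 shows ELE above sedentary libraries in SIT, left and right, while its open sedentary points, at 55.2 and 59.9 CPM, lie among its SIT ELE points. The open points of Ppargc1a at 56.5 and 67.4 CPM and of Vegfa at 57.2 CPM lie above all filled ones of these genes.

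Slc16a1 (chr3:104638668-104658462, plus strand) encodes MCT1, which glia and endothelial cells use to move lactate. Left ELE libraries read 24.2, 49.0 and 26.4 CPM and left sedentary ones 22.7, 24.2 and 25.9 CPM. The 1.37-fold difference (log2 fold change 0.45 ± 0.24, p of 0.095, adjusted p = 0.960) rested on left ELE 2, without which the log2 fold change was 0.07. That library also had the highest astrocyte marker sum of all, 6383 CPM. Right sedentary 2, with 6281 CPM of astrocyte markers, had the next highest Slc16a1 at 39.0 CPM, against 23.7 and 25.1 CPM in the other right sedentary and 24.9 to 31.1 CPM in right ELE libraries. Gfap weighs most in the astrocyte sum, at a mean of 2001 CPM and up to 4102 CPM in the libraries compared. The paper proposes that Gfap in this RNA may reflect neural stem cells. The part of the astrocyte markers in the Slc16a1 values was not tested. In SIT, ELE libraries read 24.1, 21.0 and 30.6 CPM and sedentary ones 26.6 and 21.9 CPM. Over both hemispheres the interval ran from 0.888- to 1.49-fold.

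Slc16a7 (chr10:125219270-125389465, minus strand) encodes MCT2, the high-affinity transporter of neurons. It read 34.8, 34.8 and 50.1 CPM in left ELE against 32.7, 38.4 and 34.5 CPM in left sedentary libraries. On the right it read 41.4, 36.0 and 45.9 CPM against 32.4, 31.4 and 41.3 CPM. Groups overlapped on both sides, and over both hemispheres the log2 fold change was 0.21 ± 0.10 (p of 0.0652, adjusted p = 0.924). In SIT the values were 41.7, 38.0 and 33.7 CPM in ELE and 33.7 and 38.0 CPM in sedentary libraries, a log2 fold change of 0.07 ± 0.14. Without the libraries over 1000 CPM of choroid plexus markers, chosen after the data were seen, it was 0.34 over both hemispheres (p of 0.0239, adjusted p = 1), still under 1.3-fold.

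Hcar1 (chr5:123876736-123880020, minus strand), the lactate receptor gene, had a median of 16 counts per library. SIT ELE libraries read 0.509, 1.05 and 0.305 CPM and SIT sedentary ones 0.249 and 0.904 CPM. Right ELE 2 held 0 counts, which allows up to 0.0457 CPM at 3 counts, and the other right ELE libraries read 0.623 and 0.0892 CPM against 0.109, 0.224 and 0.377 CPM in right sedentary ones. Left libraries read 0.272, 0.285 and 0.806 CPM in ELE and 0.243, 0.297 and 0.853 CPM in sedentary mice, and the groups overlapped in all 3 settings. The interval of the ELE difference over both hemispheres ran from 0.324- to 2.95-fold. With values that spread this widely between libraries, a difference within that interval could not be told from none.

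Ppargc1a (chr5:51454250-51567726, minus strand) did not differ between ELE and sedentary mice by more than the spread between libraries in any setting. SIT ELE libraries read 41.3, 29.3 and 36.3 CPM and SIT sedentary ones 35.0 and 32.9 CPM. In the left hippocampus the values were 36.2, 29.8 and 37.2 CPM against 31.8, 35.9 and 33.9 CPM, and on the right 29.1, 39.9 and 31.2 CPM against 32.7, 30.8 and 40.3 CPM. Groups overlapped in all 3. Over both hemispheres the log2 fold change was -0.01 ± 0.097 (p of 0.918, adjusted p = 0.997) with an interval of 0.861- to 1.15-fold. The sedentary SIT pair left out by the study read 56.5 and 67.4 CPM, and with all 8 SIT libraries the log2 fold change was -0.54 (p of 0.0534, adjusted p = 0.547). Mitochondrial genes and markers of microglia, inhibitory neurons and meninges were high in the same pair, as given above, and the part of these in its Ppargc1a level was not tested.

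Esrra (chr19:6910977-6921813, minus strand), the nuclear receptor partner of PGC-1alpha, had the smallest spread of the 10, with a coefficient of variation of 8.46% over 17 libraries against a median of 15.0% over expressed genes. It read 90.03, 77.0 and 70.8 CPM in SIT ELE and 75.0 and 74.2 CPM in SIT sedentary libraries. The left ELE libraries were at 66.3, 74.1 and 67.4 CPM and the left sedentary ones at 72.8, 76.9 and 73.6 CPM, and right libraries at 75.3, 87.3 and 69.2 CPM against 67.2, 74.7 and 75.8 CPM. Over both hemispheres its interval was the narrowest of the 9 genes tested, 0.903- to 1.10-fold. Fndc5 (chr4:129136999-129144593, plus strand) read 124, 124 and 179 CPM in SIT ELE and 135 and 139 CPM in SIT sedentary libraries. Its left libraries were at 127, 108 and 148 CPM against 141, 138 and 127 CPM, and its right ones at 145, 136 and 152 CPM against 145, 119 and 132 CPM. The interval over both hemispheres was 0.905- to 1.15-fold (adjusted p = 0.987).

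Vegfa (chr17:46016993-46032369, minus strand) read 20.3, 17.9 and 18.6 CPM in SIT ELE and 19.8 and 20.8 CPM in SIT sedentary libraries. Left ELE libraries were at 23.6, 36.5 and 18.1 CPM and left sedentary ones at 21.5, 22.0 and 22.4 CPM, so that the ELE values lay on both sides of a narrow sedentary range. Right libraries were at 21.8, 29.9 and 23.3 CPM against 21.6, 23.4 and 23.2 CPM. Over both hemispheres the log2 fold change was 0.19 ± 0.13 (p of 0.171, adjusted p = 0.937) with an interval of 0.937- to 1.40-fold. Markers of endothelial cells, on which VEGF-A acts, summed to between 9.07 and 17 CPM in 16 of the 17 libraries and to 47.3 CPM in right sedentary 1.

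No difference of the exercise effect between hemispheres was called for any of the 9 genes tested, where 2.21% of all genes were called, with Slc16a1 and Esrra at the smallest unadjusted p, 0.157 for each. Left and right were also compared in sedentary mice alone, and none of the 9 genes was called, against 1.71% of genes. Pdp1 stood at 35.1 to 37.5 CPM on the left and 41.7 to 42.8 CPM on the right (log2 fold change -0.22 ± 0.081), a description, since these 6 libraries are also the comparators of the ELE differences known when Pdp1 was chosen. SIT and separate isolation were compared in sedentary mice, and none of the 9 genes was called against 15.9% of genes. The log2 fold change of Pdp1, 0.14 ± 0.096, is a description for the same reason. Ldha was 1.23-fold higher in SIT (log2 fold change 0.29 ± 0.089, p of 0.006, adjusted p = 0.046), with 292 and 269 CPM against 214 to 272 CPM. With all 8 SIT libraries that difference was 0.17 (adjusted p = 0.229). Isolation, bilateral or single tissue and mouse number could not be told apart in that comparison. With all 8 SIT libraries Ppargc1a was called there at a log2 fold change of 0.51 (p of 0.0171, adjusted p = 0.0951), with the added pair that had high mitochondrial counts and high sums of microglia, inhibitory neuron and meningeal markers.

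Other genes of the same pathways were taken from 4 lists of known pathway genes. Of 20 coactivators, partners and mitochondrial biogenesis factors of PGC-1, all were tested. In SIT 1 rose and 19 did not pass, on the left 1 fell, and on the right and over both hemispheres none passed. Of all genes 3.73% were called in SIT, 2.12% on the left, 2.00% on the right and 2.06% over both hemispheres, which is the background for this list and those that follow. No list was tested as a whole, so the genes named are not a result about their list. The one that rose was Sirt1, a deacetylase that activates PGC-1alpha, at 8.83 to 11.03 CPM in SIT ELE against 6.36 and 7.23 CPM in sedentary libraries (log2 fold change 0.49 ± 0.21, p of 0.0381, adjusted p = 0.905). Its log2 fold change over both hemispheres was 0.01 ± 0.13. The one that fell was Ppara, a nuclear receptor coactivated by PGC-1alpha, from 1.78 to 2.16 CPM in left sedentary to 0.845 to 1.54 CPM in left ELE libraries (log2 fold change -0.79 ± 0.31, p of 0.0321, adjusted p = 0.960). When 1 library at a time was left out, the call of Sirt1 was lost without SIT ELE 1, sedentary 1 or sedentary 2, with a log2 fold change no lower than 0.38. That of Ppara was lost without left ELE 1, ELE 2, sedentary 1 or sedentary 3, and was nearest to 0 at -0.61. Over both hemispheres, where none was called, the 2 genes with the smallest p went in opposite directions. Sirt3 had a log2 fold change of -0.12 ± 0.064 (p of 0.0774, adjusted p = 0.924), and on the left of -0.24 ± 0.090 (p of 0.0258, adjusted p = 0.960). Gabpb1, a subunit of the factor NRF-2 that acts on mitochondrial genes, had the smallest p over both hemispheres without reaching 1.3-fold (log2 fold change 0.35 ± 0.11, p of 0.00604, adjusted p = 0.919). Its ELE libraries read 12.2 to 19.0 CPM against 11.6 to 11.9 CPM in sedentary ones on the left and 12.7 to 17.1 CPM against 11.5 to 12.7 CPM on the right. In SIT they read 14.3 to 15.6 CPM against 11.9 and 13.1 CPM. How many of all genes have ELE values above the sedentary ones in this way was not counted.

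Of 21 genes for lactate and pyruvate handling besides the 10, 19 were tested, and none passed in SIT, on the left or on the right. Ldhc and Hcar2 had too few counts. Over both hemispheres 1 fell, Slc16a8, which encodes the transporter MCT3 of choroid plexus and retinal pigment epithelium (log2 fold change -1.34 ± 0.60, p of 0.043, adjusted p = 0.924), and the call was kept in 4 of 12 fits without 1 library, at -1.06 or further from 0. Its levels were 0.171 to 1.19 CPM in left ELE, 0.540 to 2.93 CPM in left sedentary, 0.232 to 0.853 CPM in right ELE and 0.131 to 1.89 CPM in right sedentary libraries. Choroid plexus markers summed to 81.9 to 1534, 114 to 1883, 64.2 to 111 and 99.4 to 1744 CPM in the same groups, and their part in the difference was not tested. Pdk1, a kinase that opposes the product of Pdp1, had the smallest p of this list over both hemispheres at 0.899-fold, short of the fold asked (p of 0.0347, adjusted p = 0.924). It was 0.940-fold on the left, 0.859-fold on the right and 0.998-fold in SIT, without passing in any of them.

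Of 20 genes for VEGF signalling, hypoxia and angiogenesis, 18 were tested in SIT, 17 on the left, and 19 on the right and over both hemispheres. None passed in SIT. Egln3, a prolyl hydroxylase induced by hypoxia-inducible factor, rose on the left, from 4.06 to 4.92 CPM in sedentary to 5.33 to 7.31 CPM in ELE libraries (log2 fold change 0.44 ± 0.19, p of 0.045, adjusted p = 0.960). Over both hemispheres it rose by 0.48 ± 0.17 (p of 0.0139, adjusted p = 0.919), a call kept in all 12 fits that left out 1 library, whereas on the left it was lost without left ELE 2 (0.30) and without each sedentary library. In SIT its log2 fold change was 0.04 ± 0.30. On the right 2 fell, Kdr, the main VEGF receptor of endothelial cells (log2 fold change -1.26 ± 0.42, p of 0.0126, adjusted p = 1), and Tek, the angiopoietin receptor (-2.36 ± 0.89, p of 0.024, adjusted p = 1). Both calls were lost without right sedentary 1, the library with 47.3 CPM of endothelial markers, where the log2 fold changes were -0.77 and -0.99, and that of Tek also without right ELE 1 or 3. Tek is itself among the genes of that marker sum. Tek also fell over both hemispheres, by 2.24 ± 0.88 (p of 0.0233, adjusted p = 0.924). It was no longer called without right sedentary 1 (log2 fold change -1.58) or without left sedentary 1. Tek had 0 counts in 6 of the 17 libraries.

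Of 15 genes of the irisin pathway and circulating exercise factors, 12 were tested. In SIT 1 rose, on the left 1 rose, and on the right and over both hemispheres none passed. Bdnf, the neurotrophin that irisin and lactate have been linked to, rose in SIT from 64.1 and 77.6 CPM in sedentary to between 89.8 and 109 CPM in ELE libraries (log2 fold change 0.44 ± 0.13, p of 0.0059, adjusted p = 0.905). Without SIT ELE 1 or SIT sedentary 1 the call was lost, and the log2 fold change was 0.31 without the latter. Lif, a cytokine of the interleukin-6 family, rose on the left (log2 fold change 3.24 ± 1.28, p of 0.0337, adjusted p = 0.960), where ELE libraries spanned 1.57 to 58.1 CPM against 1.69 to 2.65 CPM, and without left ELE 2 the log2 fold change was -0.38. The call was also lost without each left sedentary library.

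In the other contrasts the list genes called are read against 2.21% of all genes for the ELE effect between hemispheres, 1.71% for left against right and 15.9% between isolations. The ELE effect was called different between hemispheres for Kdr (1.40 ± 0.57, adjusted p = 1) and Lif (3.63 ± 1.60, adjusted p = 1) and for none of the PGC-1 and lactate lists. In sedentary mice Kdr and Flt1, another VEGF receptor, were called lower on the left than on the right (-0.85 ± 0.35 and -3.23 ± 1.14, adjusted p = 1 for each), with right sedentary 1, which had the highest endothelial sum, among the right libraries. Flt1 is itself in that sum, at 10.2 of the 47.3 CPM in this library. Between SIT and separate isolation, 1 PGC-1 gene was higher in SIT and 3 were lower, with Mef2c, a transcription factor that drives Ppargc1a, at 0.64 ± 0.074 (adjusted p = 0.000426) and Ppara at -1.40 ± 0.43 (adjusted p = 0.0515). The lactate list had 1 lower gene of 19, Pdpr, a regulatory subunit of pyruvate dehydrogenase phosphatase (-0.87 ± 0.12, adjusted p = 0.0013). The irisin list had 1 higher and 5 lower genes of 12, led by Gpld1, a circulating phospholipase raised by exercise (-1.05 ± 0.13, adjusted p = 0.000503), and Itgb5, a subunit of the irisin receptor (-0.73 ± 0.090, adjusted p = 0.000612). Of the VEGF list Tek alone was called, with 0 counts in both SIT sedentary libraries.

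Between libraries of a group, some of the genes varied together. After subtracting each group's mean log2 CPM, Ldha and Slc16a1 had a Pearson correlation of 0.83 over the 17 libraries and Ldha and Ldhb one of -0.72. Points share library scaling and are no independent replicates of a condition, so these are descriptions. Left ELE 2 and right sedentary 2, the libraries with the highest astrocyte sums, weighed heavily in both, and without them the correlations were 0.25 and 0.34 over 15 libraries. Within the 12 separately isolated libraries they were 0.825 and -0.888, and within the 5 SIT libraries, which include neither of these, they were 0.86 and 0.84. The pooled value of Ldha and Ldhb thus joined opposite signs. The astrocyte marker sum itself, in which Gfap weighs most, had a correlation of 0.85 with Slc16a1, and 0.70 without these libraries. Its correlations of 0.58 with Ldha and -0.71 with Ldhb became -0.14 and -0.25. Other marker sums varied with these genes too, with correlations of 0.67 with Ldha and 0.75 with Slc16a1 for microglia and of 0.58 with Ldha for inhibitory neurons. Fndc5 and Pdp1 varied in opposite directions, at -0.77 over 17 and -0.79 over 15 libraries, -0.73 within separate isolation and -0.84 within SIT. The genes most like each member by this measure, out of 14116, were Nr4a2 and Kcnn3 for Ppargc1a (0.88 and 0.87), Homer1 and Rprd1b for Esrra (0.90 and 0.90), Chst12 and Ppt1 for Fndc5 (0.94 and 0.90), and Unkl and Gm21955 for Pdp1 (0.92 and 0.88). For the lactate genes they were Gm1673 and Map2k2 for Ldha (0.95 and 0.94), Lamp5 and Hlf for Ldhb (0.96 and 0.96), Slc39a1 and Slc1a4 for Slc16a1 (0.97 and 0.96), and Atp2b1 and Eps15 for Slc16a7 (0.94 and 0.94). Krt2 and Rab3d were most like Vegfa (0.91 and 0.91), and Hcar1 was too low to be compared.

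**Figure D4:**
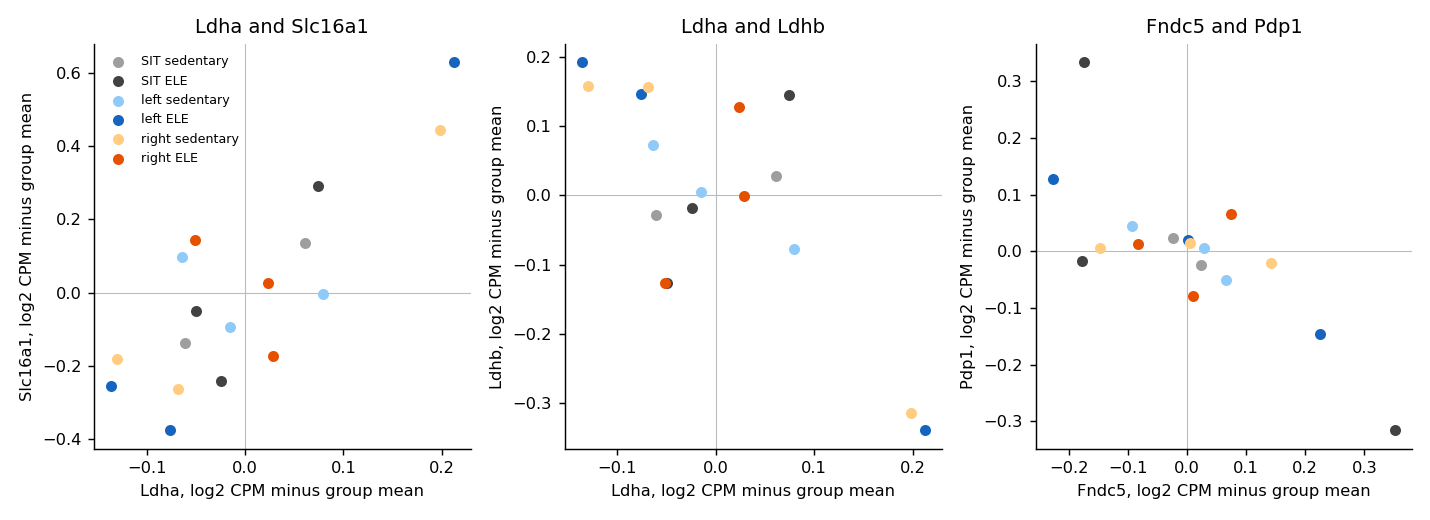
Each library's log2 CPM minus its group mean for Ldha against Slc16a1, Ldha against Ldhb, and Fndc5 against Pdp1, 17 points coloured by group. In the first panel 1 left ELE and 1 right sedentary library lie far to the upper right, and in the second the same libraries lie far to the lower right, with the correlations of 0.83 and -0.72 falling to 0.25 and turning to 0.34 without them, while Fndc5 and Pdp1 keep -0.79.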

How the data were processed

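Translating mRNA of 20 libraries of Emx1-NuTRAP hippocampus was analysed. The authors aligned reads with STAR 2.7.3a, removed duplicates with Picard 1.87, counted the remaining reads on the exons of genes, and deposited the raw counts of each gene as whole numbers. A separate table of wild-type hippocampus was not used, since its 24 columns of per-sample values could not be matched to samples. Columns carry mouse numbers, which were tied to groups through the study's sample table. Mean normalized counts in the study's left and right lists matched the columns so placed for 548 of 548 and 358 of 358 genes within 0.1%, and for 1 and 2 genes with the sides exchanged. The order of the GEO samples, which was not used, would exchange left and right. The SIT subset was identified as the 1 of 24 subsets whose mean normalized counts matched those listed by the study for 633 of 633 genes. Symbols and exon lengths came from the GENCODE annotation of GRCm38.

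The members and gene lists were chosen with earlier results of these data known. Counts between 45895097 and 65767802 per library were scaled with TMM, filtered with filterByExpr and tested with edgeR 4.0.16 (R 4.3.3) by its quasi-likelihood test on the libraries of each comparison alone, with Benjamini-Hochberg adjustment over all genes tested. The SE of a log2 fold change is its size divided by the square root of F, and intervals are at 95%. CPM used TMM factors over 20 libraries, and correlations log2(CPM + 0.5). Limits from counts cover counting error only. Genes named are the 10 members and genes from 4 pathway lists. From those lists they were taken among the called genes (up to 4 by smallest p) or, with none called, among the 2 with the smallest p, and not all are printed. Also named are the 2 most abundant genes of a marker list, the inhibitory neuron markers called in SIT and the 2 genes most correlated with each member. Promoter sequence is from RefSeq (GRCm38.p6), and the set of promoters used held 8 of the 10 genes. Alternatives were DESeq2 1.42.0, median-of-ratios factors (RLE), no filter, all 8 SIT libraries, the NT6 mice alone, a block on the mouse number, 1 fit over 4 groups, p under 0.05 alone, and leaving out each library. A comparison of the SIT with the separate ELE differences was added after the data were seen. Simulated counts, with the same spread for every gene, were used only to check that changes put in were found. They do not bear on the p-values given here.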

Additional observations from a re-analysis of the deposited data

Results flagged for a closer look

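Vegfa stood at 57.2 CPM in SIT ELE 2, a library the study left out, against 17.9 to 20.3 CPM in the other 3 SIT ELE libraries. Its gap to the nearest of them was 0.940 of the group's range. This was the single far value in 20 groups of 4 libraries checked, and chance gives about 1 in 20.

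The ELE difference of Ldha differed between SIT and separately isolated libraries by -0.32 ± 0.12 on the log2 scale (edgeR p of 0.0186, adjusted p = 0.982), being negative in SIT and positive on the left and on the right. The test of this difference was chosen with the values known. Over all genes 4.19% were called in it, and none of the 9 members tested was. The direction in SIT turned when the libraries left out by the study were included, so the difference rests on which SIT libraries are compared.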

How the results depend on the processing

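Of 805 alternative fold changes of the members, without those of Pdp1 for exercise, 797 kept the call made in the report, 8 gained a call, 0 lost one and 0 reversed a called direction. Among the 797, 110 changed sign without a call in either, 27 of them for Hcar1. No member was called in any comparison as reported, with Pdp1 not counted for exercise. In SIT the count went to 1 (Ldhb) within the NT6 mice, where 6.74% of all genes were called, and with p under 0.05 alone (5.48%), and stayed at 0 without any 1 library, where a lone sedentary library is assumed to vary like the others. On the left it went to 1 (Slc16a1) with DESeq2 (2.09% of all genes) or without the low-count filter (2.59%), to 1 (Ldha) with p under 0.05 alone (3.94%), and was between 0 and 1 without 1 library, being Slc16a1 without left ELE 1 (5.34%) and Vegfa without left ELE 3 (4.51%). The cause was not tested. With p under 0.05 alone it went to 1 (Ldha) over both hemispheres (5.31%), and for the interaction to 1 (Slc16a1) without the filter (3.56%). Between left and right in sedentary mice it was 0 to 1 without 1 library (Slc16a1 without right sedentary 1, 2.87%), and between isolations 1 (Ppargc1a) with all 8 SIT libraries (16.4%). The exercise differences of Pdp1, with the difference between hemispheres among them, kept their direction in all 65 alternatives. They moved by more than the spread between libraries in 3, all in SIT. Pdp1 was chosen with its ELE differences in view, so refits of the same libraries describe them and lend no support. Ldha over both hemispheres kept its direction in 17 of 17 alternatives, with log2 fold changes of 0.15 to 0.25 and p from 0.00116 to 0.0789. Ldhb in SIT kept its direction in 10 of 10, from -0.50 to -0.18, with p from 0.00412 to 0.191. A replicate block on the first part of the mouse number left the count of members called at 0 in the 5 comparisons where it could be fitted, and gave 327, 308, 453, 419 and 276 genes called on the left, on the right, over both hemispheres, for the interaction and for left against right. Mice sharing that number did not deviate together throughout, with correlations of -0.0993 to 0.566 over 18 pairs, 7 of them over 0.1, and 6 of 12 libraries closest to one of their own number. Hcar1 had the fewest counts of the members, with a median of 16, and the widest spread.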
